A study of Homo sapiens with 27 samples.

Results

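The 8 genes described here encode the sterol regulatory element-binding proteins and the machinery that holds, releases and cuts them, together with a carrier that moves sterol inside the cell. They were taken by gene symbol from a table of 20987 genes: SREBF1, SREBF2, SCAP, INSIG1, INSIG2, MBTPS1, MBTPS2 and STARD4, and all 8 were present and passed the filter on low values in every comparison. Expression was measured by RNA sequencing of poly(A) RNA in 27 libraries of cultured human prostate cancer cells, from 3 established lines. LNCaP derives from a tumour that had spread to a lymph node and is labelled androgen sensitive, while 22Rv1, from a relapsed xenograft, and LNCaP95, grown out of LNCaP in androgen-depleted medium, are labelled castration resistant. In each line the groups were DMSO vehicle, 100 nM IPI-9119 and 500 nM IPI-9119, with 3 libraries a group, and every culture was kept for 6 days with no fresh medium. IPI-9119 blocks fatty acid synthase, which makes palmitate. No line carries an engineered allele per the labels, and each stands for the cells of 1 tumour. The labels do not say whether the 3 libraries of a group came from separate cultures, so p-values reflect the spread over these libraries alone, and that spread may be technical.

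SREBPs are made as precursors anchored in the membrane of the endoplasmic reticulum, where the sterol sensor SCAP binds them. When sterols are plentiful, INSIG proteins hold SCAP in the endoplasmic reticulum; when sterols are scarce, SCAP carries the precursor in COPII vesicles to the Golgi, where the site-1 protease (MBTPS1) and then the site-2 protease (MBTPS2) cut it and free the part that enters the nucleus. SREBP-1 is best known for genes of fatty acid synthesis, and SREBP-2 for genes of cholesterol synthesis and uptake. INSIG1, SREBF2 and STARD4 are themselves known targets of SREBPs, so messenger RNA of these genes is often read as a gauge of the pathway.

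The letters upstream of 4 of these genes are shown: those of SREBF1 and SREBF2, which encode the factors, and those of INSIG1 and STARD4, known targets of SREBPs, which act at promoters together with the factors NF-Y and Sp1. Each run is the 250 bases before the transcription start that RefSeq gives on GRCh38.p14, read 5′ to 3′ on the strand of the gene. Capitals mark matches, on either strand, to a sterol regulatory element, to the palindromic E-box, to the core of the NF-Y box and to the core of the Sp1 box, which are spelled out after the sequences.
SREBF2, chr22:41832855-41833104, plus strand: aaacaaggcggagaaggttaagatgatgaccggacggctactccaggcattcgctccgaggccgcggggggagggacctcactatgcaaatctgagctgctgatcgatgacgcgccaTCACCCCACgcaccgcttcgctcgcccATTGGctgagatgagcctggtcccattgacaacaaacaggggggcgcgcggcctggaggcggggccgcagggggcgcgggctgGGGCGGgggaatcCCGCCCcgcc
INSIG1, chr7:155297628-155297877, plus strand: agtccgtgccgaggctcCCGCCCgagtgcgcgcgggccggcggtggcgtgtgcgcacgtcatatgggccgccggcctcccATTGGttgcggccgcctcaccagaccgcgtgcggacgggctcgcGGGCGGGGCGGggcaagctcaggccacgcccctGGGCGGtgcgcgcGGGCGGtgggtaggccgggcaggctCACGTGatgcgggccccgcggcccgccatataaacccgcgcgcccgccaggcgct
STARD4, chr5:111512536-111512785, minus strand: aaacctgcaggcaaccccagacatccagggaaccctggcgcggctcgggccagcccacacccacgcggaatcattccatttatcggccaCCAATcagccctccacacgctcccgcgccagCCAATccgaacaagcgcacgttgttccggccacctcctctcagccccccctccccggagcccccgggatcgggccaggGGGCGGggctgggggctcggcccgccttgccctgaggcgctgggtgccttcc
SREBF1, chr17:17836987-17837236, minus strand: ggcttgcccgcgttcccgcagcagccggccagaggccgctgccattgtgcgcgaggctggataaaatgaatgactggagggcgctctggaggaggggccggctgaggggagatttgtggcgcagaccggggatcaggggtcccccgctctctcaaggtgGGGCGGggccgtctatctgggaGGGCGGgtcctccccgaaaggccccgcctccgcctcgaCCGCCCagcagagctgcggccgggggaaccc

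The SREBF2 window held the letters of a sterol regulatory element, TCACCCCAC, which start 133 bases before the transcription start and occur in 127 of 35116 RefSeq promoter windows of the same length (0.362%). A form with 1 open base, TCACNCCAC, is the same match in SREBF2 and is found in 0.883% of windows; the other 7 genes held neither form. Cores of the NF-Y box, CCAAT, began 106 bases upstream in SREBF2, 170 bases upstream in INSIG1 and 161 and 130 bases upstream in STARD4, against 32.0% of all windows with 1 or more. The palindromic E-box CACGTG, present in 6.34% of windows, lay 55 bases upstream in INSIG1 and 58 bases upstream in SCAP. Sp1 cores, GGGCGG, are in 42.6% of windows and numbered 3 in SREBF1, 2 in SREBF2, 5 in INSIG1 (a pair of which overlap), 1 in STARD4 and 3 in SCAP. INSIG2, listed with 2 starts, had 1 Sp1 core before each and none of the other motifs, and MBTPS1 and MBTPS2 had no match to any of them. A match describes letters and is not a measured binding site, the SREBF1 window covers 1 start only, and the expression values were counted on another build, hg19.

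Libraries held 14757874 to 26578881 reads in genes, and the smallest number of reads behind any value of these 8 genes was 52, for STARD4. All values are normalised read counts, read numbers per gene scaled by the size factor of each library. In bulk RNA, fewer cells of a type and less RNA per cell cannot be told apart. All 10 luminal prostate markers were expressed in every group, their summed level running from 51671 to 119340, and the basal markers KRT5, KRT14 and TP63 summed to at most 18.5. LNCaP95 also carried LUM at 780 to 1548 and PTPRC at 65.4 to 139, while the synaptic marker SYP stood at 990 to 1244 in 22Rv1; the part of these in the line differences was not tested. In LNCaP, replicate 1 stood apart: it was the highest of its group at all 3 doses for 6 of the 8 genes, all but INSIG2 and MBTPS1, beside 13.5% of all genes tested in that line. In LNCaP95 replicate 1 was likewise highest for 3 of the 8 (SREBF2, INSIG1 and STARD4), beside 11.1% of genes, and in 22Rv1 for 0, beside 3.82%. LNCaP results are also given from replicates 2 and 3 alone, that is without replicate 1 in any group. Leaving out the replicate that was highest for most of these genes narrows the spread. The smaller p-values of those fits are therefore no stronger support than those of the main fit. Levels of some marker lists also differed with the drug. In LNCaP the 5 stromal markers summed to 276 to 320 in DMSO, 479 to 628 at 100 nM and 440 to 622 at 500 nM, with DCN at 0 throughout. In LNCaP the 4 immune markers, mostly CD68, summed to 12 to 29.4 in DMSO, 73.8 to 96.9 at 100 nM and 65.8 to 81.2 at 500 nM, with PTPRC and CD3E at 0 in the DMSO and 500 nM groups. The luminal sum in LNCaP was 104128 to 119340 in DMSO, 85195 to 101719 at 100 nM and 87395 to 96329 at 500 nM. In LNCaP95 the luminal sum was 55837 to 57931 in DMSO, 65968 to 70603 at 100 nM and 65572 to 70551 at 500 nM, with no overlap between drug and DMSO. The part of these lists in the results of either line was not tested.

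SREBF1, which encodes SREBP-1a and SREBP-1c from different starts, rose in all 3 lines at 500 nM and had the highest level per kilobase of the 8 genes in each of the 9 groups. In LNCaP it stood at 10858, 9146 and 8440 normalised reads in DMSO, at 20718, 11080 and 10585 at 100 nM and at 22346, 22074 and 20414 at 500 nM. In 22Rv1 it stood at 15033, 12248 and 12052 in DMSO, at 35023, 35107 and 30609 at 100 nM and at 33704, 32811 and 33921 at 500 nM. In LNCaP95 the values were 6114, 6046 and 6306 in DMSO, 14813, 14850 and 14994 at 100 nM and 15240, 14334 and 15038 at 500 nM. Every library at 500 nM lay above every DMSO library of its line, and at 100 nM only replicate 2 and replicate 3 of LNCaP were close to DMSO, below or just above its highest library. Against DMSO, 500 nM raised SREBF1 by 1.20 ± 0.21 on the log2 scale in LNCaP (SE of the limma fit, n = 3 libraries a group; adjusted p = 0.00286). The rise was 1.36 ± 0.11 in 22Rv1 (limma adjusted p = 3.59e-05) and 1.27 ± 0.07 in LNCaP95 (limma adjusted p = 1.08e-07). The rises at 500 nM were thus close to one another in the 3 lines. At 100 nM it was 1.36 ± 0.11 in 22Rv1 (limma adjusted p = 2.83e-05), 1.27 ± 0.07 in LNCaP95 (limma adjusted p = 1.09e-07) and a difference of 0.51 ± 0.21 in LNCaP that was not called (limma adjusted p = 0.0969). That LNCaP difference was called without 100 nM replicate 3 (0.68, adjusted p = 0.0435), and from replicates 2 and 3 alone it was 0.30 (limma adjusted p = 0.0321). SREBF1 and RAI1 overlap on opposite strands in GENCODE 29, and since the strand setting of the counting is not given, the SREBF1 values are uncertain to that degree.

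SREBF2, which encodes SREBP-2, rose less than SREBF1 and passed the test in 22Rv1 and LNCaP95. In LNCaP it had 6896, 4904 and 4794 normalised reads in DMSO, 9106, 4900 and 4556 at 100 nM and 9539, 8008 and 8065 at 500 nM. In 22Rv1 it had 11091, 10745 and 11150 in DMSO, 14918, 13227 and 14009 at 100 nM and 14772, 14856 and 15715 at 500 nM. LNCaP95 libraries had 6534, 6095 and 6045 in DMSO, 11958, 10265 and 10719 at 100 nM and 12162, 10150 and 10002 at 500 nM. The 500 nM libraries again all lay above the DMSO libraries of their line, while the 100 nM group of LNCaP overlapped DMSO. The rise at 500 nM was 0.46 ± 0.08 in 22Rv1 (limma adjusted p = 0.00803) and 0.79 ± 0.09 in LNCaP95 (limma adjusted p = 1.36e-05). At 100 nM SREBF2 rose by 0.82 ± 0.09 in LNCaP95 (limma adjusted p = 1.02e-05) and by 0.35 ± 0.08 in 22Rv1 (limma adjusted p = 0.0309). The LNCaP difference at 500 nM lay between these in size but had a wider error. In LNCaP the differences were 0.64 ± 0.23 at 500 nM (limma adjusted p = 0.0696) and 0.11 ± 0.23 at 100 nM (limma adjusted p = 0.754), neither of them called. The LNCaP difference at 500 nM was called when replicate number entered as a block (0.64, limma adjusted p = 0.00555). Same-numbered libraries of these groups deviated together, though those of replicate 3 no more than a mismatched pair. That difference was also called without DMSO replicate 1 (0.81, limma adjusted p = 0.0213) and from replicates 2 and 3 alone (0.73, adjusted p = 1.16e-04). Libraries at equal totals (0.71, limma adjusted p = 0.0297) and DESeq2 (0.64, adjusted p = 0.0231) called it too, and edgeR did not. The 22Rv1 rise at 100 nM lost its call without DMSO replicate 1, 2 or 3 or 100 nM replicate 1 (limma adjusted p from 0.0632 to 0.148) and with libraries at equal totals (0.26, adjusted p = 0.0891).

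SCAP, the escort and sterol sensor, was not called in any comparison of drug with DMSO. Its means ± SD were 4034 ± 241 normalised reads in DMSO, 3797 ± 900 at 100 nM and 3792 ± 338 at 500 nM in LNCaP. In 22Rv1 they were 3948 ± 354, 3932 ± 395 and 4016 ± 222 in the same dose order, and in LNCaP95 they were 2756 ± 321, 2723 ± 179 and 2749 ± 202 (n = 3 libraries a group). DMSO and drug libraries overlapped in all 6 comparisons. The 95% interval of the log2 difference at 500 nM was -0.41 to 0.23 for LNCaP, -0.20 to 0.25 for 22Rv1 and -0.19 to 0.19 for LNCaP95.

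INSIG1, the anchor of SCAP whose own gene SREBPs induce, had the largest log2 change of the 8 genes in LNCaP and in LNCaP95. LNCaP held 1146, 495 and 542 normalised reads in DMSO, 6230, 1185 and 1137 at 100 nM and 8043, 3855 and 3903 at 500 nM. 22Rv1 held 3417, 3161 and 3676 in DMSO, 7653, 6033 and 6532 at 100 nM and 7340, 6372 and 6694 at 500 nM. LNCaP95 held 2948, 2256 and 2684 in DMSO, 8321, 7280 and 7664 at 100 nM and 8097, 7148 and 7538 at 500 nM. Drug libraries lay above DMSO libraries everywhere except at 100 nM in LNCaP, where replicate 3 was below the highest DMSO library, replicate 1. INSIG1 rose by 2.87 ± 0.58 at 500 nM in LNCaP (limma adjusted p = 0.00554), or 2.90 from replicates 2 and 3 alone (limma adjusted p = 1.52e-08). It rose by 0.99 ± 0.11 at 500 nM in 22Rv1 (limma adjusted p = 2.90e-04) and by 1.54 ± 0.10 in LNCaP95 (limma adjusted p = 1.90e-07). Both castration-resistant lines had rises of much the same size at the lower dose. The 100 nM rises were 0.97 ± 0.11 in 22Rv1 (limma adjusted p = 3.07e-04) and 1.57 ± 0.10 in LNCaP95 (limma adjusted p = 1.79e-07). In LNCaP the 100 nM difference of 1.59 ± 0.58 was not called (limma adjusted p = 0.0634). It was called without DMSO replicate 1 or without 100 nM replicate 3 (limma adjusted p = 0.0235 and 0.0417) and from replicates 2 and 3 alone, at 1.16 (adjusted p = 4.15e-06).

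INSIG2, the paralog that is not known as a target of nuclear SREBP, rose in LNCaP and LNCaP95 and not in 22Rv1. LNCaP had 238, 311 and 316 normalised reads in DMSO, 479, 404 and 387 at 100 nM and 486, 522 and 575 at 500 nM. LNCaP95 had 344, 434 and 381 in DMSO, 710, 728 and 683 at 100 nM and 670, 723 and 750 at 500 nM. In 22Rv1, with 133, 141 and 138 in DMSO, 127, 106 and 166 at 100 nM and 117, 138 and 140 at 500 nM, the groups overlapped, whereas neither dose overlapped DMSO in the other two lines. INSIG2 rose at 500 nM by 0.88 ± 0.14 in LNCaP (limma adjusted p = 0.00139) and by 0.89 ± 0.09 in LNCaP95 (limma adjusted p = 5.71e-06). At 100 nM the rises were 0.56 ± 0.14 in LNCaP (limma adjusted p = 0.0135) and 0.88 ± 0.09 in LNCaP95 (limma adjusted p = 6.49e-06). The log2 difference at 500 nM in 22Rv1 was -0.06, with a 95% interval from -0.44 to 0.31. From replicates 2 and 3 of LNCaP alone, the INSIG2 rise was 0.80 at 500 nM (limma adjusted p = 3.72e-04) and 0.33 at 100 nM (limma adjusted p = 0.0378).

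Of the proteases, MBTPS1 was called in LNCaP95 and in neither other line, and MBTPS2 was called in none. MBTPS1, which makes the first cut in the Golgi lumen, had 2413, 2473 and 2277 normalised reads in DMSO, 3277, 3126 and 3089 at 100 nM and 3277, 3139 and 2893 at 500 nM in LNCaP95. Both dose groups lay above DMSO there, by 0.41 ± 0.07 at 100 nM (limma adjusted p = 2.90e-04) and 0.38 ± 0.07 at 500 nM (limma adjusted p = 5.18e-04). In 22Rv1 it averaged 2496 ± 10 in DMSO, 2683 ± 32 at 100 nM and 2676 ± 136 at 500 nM (SD, n = 3), which did not overlap, but the log2 difference of 0.10 ± 0.08 at 500 nM was not called (limma adjusted p = 0.507). LNCaP averaged 2462 ± 88 in DMSO, 2306 ± 137 at 100 nM and 2285 ± 66 at 500 nM (SD, n = 3), a log2 difference of -0.11 ± 0.08 at 500 nM that was not called either (limma adjusted p = 0.352). MBTPS2, which makes the second cut within the membrane, averaged 741 ± 145, 854 ± 117 and 879 ± 78 from DMSO to 500 nM in LNCaP, 547 ± 104, 542 ± 113 and 597 ± 57 in 22Rv1 and 1362 ± 28, 1388 ± 97 and 1314 ± 31 in LNCaP95 (SD, n = 3 libraries a group). Its DMSO and drug libraries overlapped in all 6 comparisons, and its log2 difference at 500 nM was 0.26 ± 0.14 in LNCaP (limma adjusted p = 0.226). DMSO replicate 1 of LNCaP had the highest MBTPS2 value of its group. Without it MBTPS2 was called at 500 nM (0.41, limma adjusted p = 0.0252) and at 100 nM (0.37, adjusted p = 0.0361). From LNCaP replicates 2 and 3 alone MBTPS2 was called at 500 nM (0.35, limma adjusted p = 0.0363) and not at 100 nM. YY2 lies within MBTPS2 on the same strand in GENCODE 29, so reads of the 2 genes may have been split between them.

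STARD4, a soluble protein that carries cholesterol between membranes, rose in all 3 lines and at both doses. In LNCaP it had 126, 53.1 and 52.0 normalised reads in DMSO, 341, 132 and 146 at 100 nM and 466, 287 and 350 at 500 nM. In 22Rv1 the values were 362, 388 and 402 in DMSO, 823, 501 and 919 at 100 nM and 810, 756 and 660 at 500 nM. In LNCaP95 they were 166, 134 and 94.1 in DMSO, 298, 215 and 228 at 100 nM and 256, 186 and 209 at 500 nM. No drug library overlapped the DMSO libraries of its line, and LNCaP replicate 1 was the highest of its group at each dose. STARD4 rose at 500 nM by 2.34 ± 0.39 in LNCaP (limma adjusted p = 0.00209), by 0.94 ± 0.19 in 22Rv1 (limma adjusted p = 0.0110) and by 0.75 ± 0.20 in LNCaP95 (limma adjusted p = 0.00601). At 100 nM the rises were 1.40 ± 0.39 in LNCaP (limma adjusted p = 0.0239), 0.91 ± 0.19 in 22Rv1 (limma adjusted p = 0.0143) and 0.93 ± 0.20 in LNCaP95 (limma adjusted p = 0.00139). LNCaP, the line with the lowest DMSO level, had the largest rise at 500 nM. From LNCaP replicates 2 and 3 alone, STARD4 rose by 2.57 at 500 nM (limma adjusted p = 1.57e-06) and by 1.39 at 100 nM (limma adjusted p = 1.04e-04). The LNCaP call at 100 nM was lost without DMSO replicate 2, DMSO replicate 3 or 100 nM replicate 1 (limma adjusted p from 0.0730 to 0.0944). In 22Rv1 the call was lost at 500 nM without 500 nM replicate 1 (adjusted p = 0.0604) and at 100 nM without DMSO replicate 2 or 100 nM replicate 1 (adjusted p = 0.0522 and 0.0816).

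**Figure D1:**
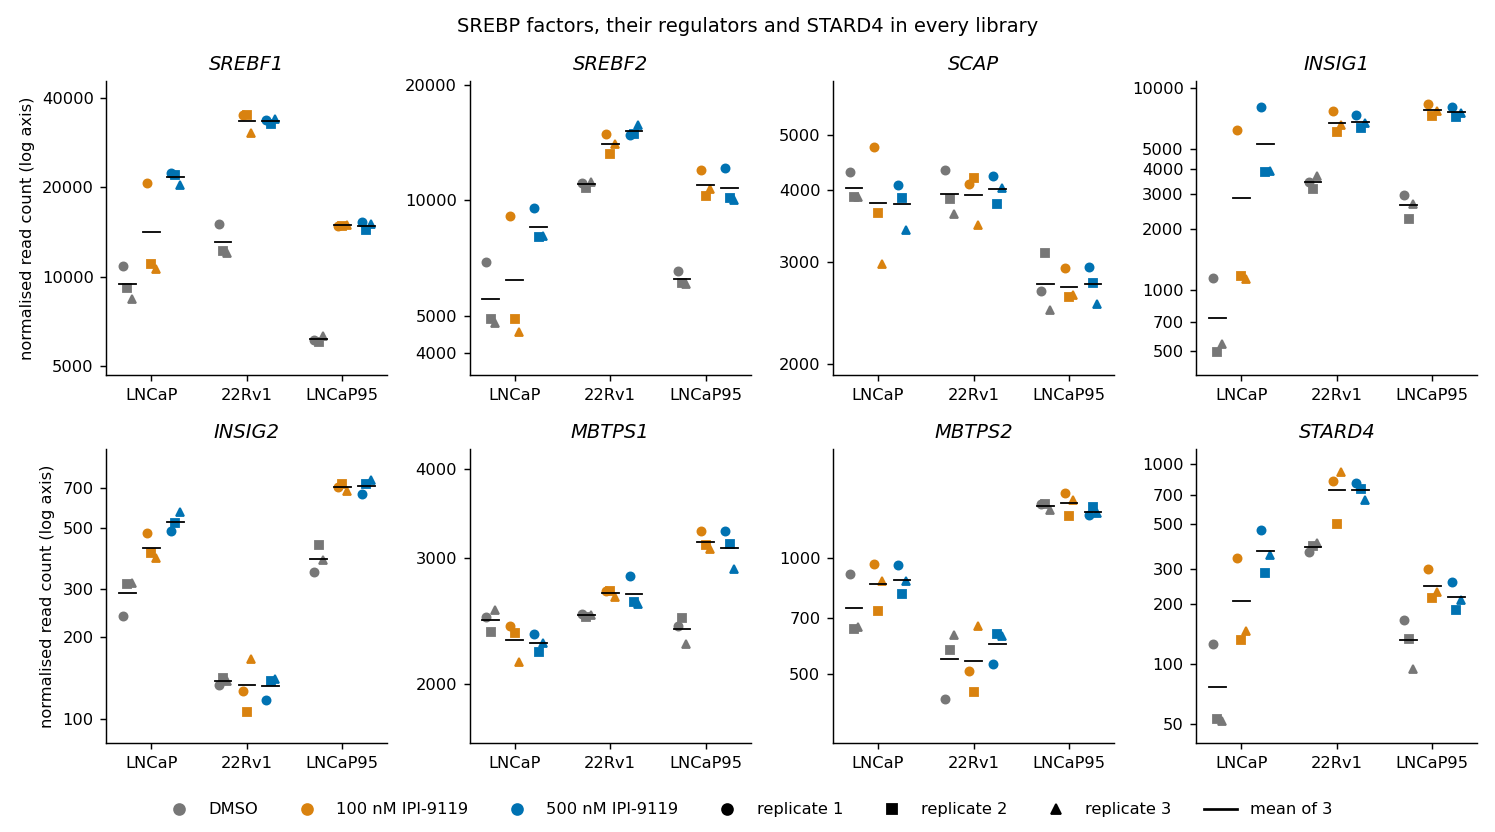
Normalised read counts (log axis) of the 8 genes in all 27 libraries, by line and, within a line, DMSO, 100 nM and 500 nM IPI-9119 from left to right; symbols mark the replicate number and bars the mean of 3. INSIG1 in LNCaP spans 495 to 8043, with replicate 1 the highest at each dose, while SCAP stays between 2484 and 4762 over all libraries.

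Counted over the 8 genes at 500 nM against DMSO, 4 rose in LNCaP, where 11.0% of all genes tested rose, 4 rose in 22Rv1, where 3.47% rose, and 6 rose in LNCaP95, where 28.2% rose. At 100 nM against DMSO, 2 rose in LNCaP against 13.7% of all genes, 4 rose in 22Rv1 against 3.19%, and 6 rose in LNCaP95 against 28.2%. None of the 8 fell in any of these 6 comparisons: by limma 0 were lower at an unadjusted p under 0.05, and edgeR and DESeq2 called 0 lower. Of all genes at 500 nM, 2671 of 12837 were called in LNCaP, 1409 of them rises. In 22Rv1 946 of 13563 were called, 471 of them rises, and in LNCaP95 6715 of 12844, 3623 of them rises. At 100 nM the numbers were 3250 and 1765, 889 and 433, and 6713 and 3616. The remaining calls were falls, and whether 0 falls sets the 8 genes apart was not tested. The median log2 difference of the 8 genes at 500 nM was 0.76 in LNCaP, 0.30 in 22Rv1 and 0.77 in LNCaP95, beside -0.01, -0.00 and 0.03 for all genes tested. At 100 nM the medians were 0.36, 0.23 and 0.85 in the same order of lines, beside -0.00, -0.01 and 0.03 for all genes. At 500 nM all drug libraries lay above all DMSO libraries for 5 of the 8 genes in LNCaP, 5 in 22Rv1 and 6 in LNCaP95, beside 19.6%, 15.2% and 31.6% of all genes tested. At 100 nM this held for 2, 5 and 6 genes in the same order of lines, beside 18.2%, 11.0% and 32.2%. In LNCaP at 500 nM all drug libraries lay below DMSO for 1 gene, MBTPS1, which was not called, beside 21.3% of all genes. With libraries scaled to equal totals, the share of calls that were rises among all genes moved to 69.0% (52.8% as deposited) in LNCaP at 500 nM and to 65.7% (54.3%) at 100 nM. In 22Rv1 the same scaling gave 26.7% (49.8%) at 500 nM and 26.9% (48.7%) at 100 nM. The 2 doses of a line share their DMSO libraries, so likeness between them is no independent repeat.

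**Figure D2:**
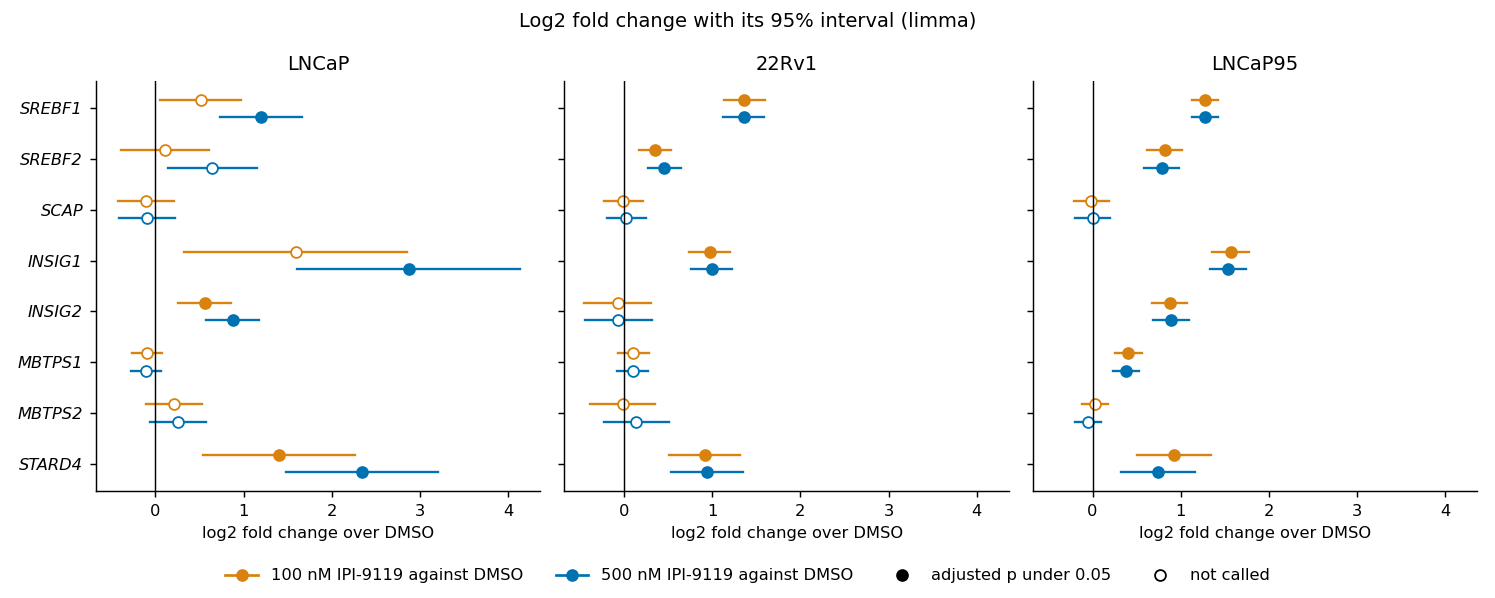
Log2 fold change of each gene over DMSO with its 95% interval from the limma fit, at 100 nM (orange) and 500 nM (blue) in each line; filled points passed the test at an adjusted p under 0.05. SREBF1 lies between 1.20 and 1.36 at 500 nM in all 3 lines, whereas INSIG1 runs from 0.99 in 22Rv1 to 2.87 in LNCaP, and SCAP and MBTPS2 are open throughout.

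Between the doses, no member was called in any line. In LNCaP, 0 of 8 differed at 500 nM against 100 nM, where 1 of 12837 genes was called (0.00779%). By the looser mark of an unadjusted p under 0.05, 5 of the 8 were higher at 500 nM. They were SREBF1 by 0.68, SREBF2 by 0.53, INSIG1 by 1.28, INSIG2 by 0.32 and STARD4 by 0.94. Many other genes pass that mark too: ACACA, at an unadjusted limma p of 0.0501, had an adjusted p of 0.438. The looser mark is not the threshold behind the 0.00779%. The share of all genes under it in LNCaP is not given here, so whether 5 of the 8 sets these genes apart was not tested. Of the 8, edgeR and DESeq2 called 0. LNCaP 100 nM replicate 1 lay near the 500 nM libraries for SREBF1, SREBF2 and INSIG1, and the differences were larger without it. Without that library SREBF1 was higher at 500 nM by 1.0 (limma adjusted p = 0.00977), SREBF2 by 0.85 (adjusted p = 0.0455) and INSIG1 by 2.09 (adjusted p = 0.0453). From replicates 2 and 3 alone these 3 genes, INSIG2 at 0.47 (limma adjusted p = 0.0338) and STARD4 at 1.18 (adjusted p = 0.00283) were all called. In 22Rv1 the 500 nM libraries differed from the 100 nM libraries in 0 members and 0% of genes, and in LNCaP95 likewise in 0 members and 0% of genes. At an unadjusted p under 0.05, limma found 0 of the 8 in either of these lines, and edgeR and DESeq2 called 0. Over all genes, 152 in 22Rv1 and 95 in LNCaP95 were under 0.05 unadjusted, and edgeR and DESeq2 called 0. The widest 95% interval of a dose difference was -0.60 to 0.24 on the log2 scale in LNCaP95 and -0.37 to 0.44 in 22Rv1, both for STARD4.

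The size of the 500 nM effect was compared between lines in 1 fit of all 27 libraries, which gives each gene 1 spread over the 3 lines. Between LNCaP95 and LNCaP, 2 of the 8 effects differed, where 38.9% of all genes did. MBTPS1 moved by 0.48 ± 0.09 more in LNCaP95 (limma adjusted p = 2.44e-04), and STARD4 less, with a log2 difference of -1.60 ± 0.45 (limma adjusted p = 0.00621). For INSIG1 the difference of -1.34 ± 0.56 was not called (limma adjusted p = 0.0626), but it was with replicate numbers as a block (adjusted p = 3.93e-04) and without LNCaP DMSO replicate 1 (-1.72, adjusted p = 0.0156). Between 22Rv1 and LNCaP, 3 of the 8 differed, where 14.3% of all genes did: INSIG1 by -1.88 ± 0.56 (limma adjusted p = 0.0251), INSIG2 by -0.94 ± 0.20 (adjusted p = 0.00192) and STARD4 by -1.40 ± 0.45 (adjusted p = 0.0360), all smaller in 22Rv1. Between LNCaP95 and 22Rv1, 2 of the 8 differed, where 25.4% of all genes did: INSIG2 by 0.95 ± 0.20 (limma adjusted p = 0.00112) and MBTPS1 by 0.28 ± 0.09 (adjusted p = 0.0314), both larger in LNCaP95. The SREBF1 effect was not called different in any pair, the 95% interval of the difference being -0.38 to 0.53 for LNCaP95 minus LNCaP, -0.29 to 0.62 for 22Rv1 minus LNCaP and -0.54 to 0.36 for LNCaP95 minus 22Rv1. For SREBF2 those intervals were -0.34 to 0.63, -0.67 to 0.30 and -0.16 to 0.81 in the same order. The STARD4 difference between 22Rv1 and LNCaP lost its call without any 1 of 9 libraries (limma adjusted p from 0.0513 to 0.112). Those were all of the 12 compared except LNCaP DMSO replicate 1, LNCaP 500 nM replicate 2 and 22Rv1 DMSO replicate 1. That STARD4 call was also lost by DESeq2 (-1.32, adjusted p = 0.0520) and with no filter on low values (limma adjusted p = 0.0544). The INSIG1 difference between those lines was lost without LNCaP DMSO replicate 2 or 3, LNCaP 500 nM replicate 1, 22Rv1 DMSO replicate 3 or 22Rv1 500 nM replicate 2 (adjusted p from 0.0504 to 0.0829). MBTPS1 in LNCaP95 minus 22Rv1 was lost without 22Rv1 DMSO or 500 nM replicate 2 or 3, LNCaP95 DMSO replicate 3 or LNCaP95 500 nM replicate 1 or 2 (adjusted p from 0.0503 to 0.0920). At equal totals, rises were 39.5% of all calls (50.9% as deposited) for LNCaP95 minus LNCaP, 21.4% (47.4%) for 22Rv1 minus LNCaP and 61.6% (51.2%) for LNCaP95 minus 22Rv1, and the median over all genes shifted by -0.16 for 22Rv1 minus LNCaP.

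The paralogs did not change in step. The ratio of INSIG1 to INSIG2 normalised reads in LNCaP ran from 1.59 to 4.80 in DMSO, from 2.93 to 13.0 at 100 nM and from 6.78 to 16.5 at 500 nM. In 22Rv1 it ran from 22.3 to 26.4 in DMSO, from 39.0 to 59.8 at 100 nM and from 45.8 to 62.1 at 500 nM. In LNCaP95 the ranges were 5.19 to 8.54, 9.99 to 11.7 and 9.88 to 12.1 in that dose order. Every 500 nM library therefore had a higher ratio than every DMSO library of its line, and the mean log2 ratio was higher at 500 nM by 1.99 in LNCaP, 1.06 in 22Rv1 and 0.65 in LNCaP95. Averaged over the lines the ratio differed by 1.23 (exact permutation test within lines over 8000 relabellings of 18 libraries, two-sided p = 0.00025, the smallest it can give). SREBF1 to SREBF2 ranged from 1.57 to 1.86 in DMSO, from 2.26 to 2.32 at 100 nM and from 2.34 to 2.76 at 500 nM in LNCaP, where replicate 1 did not stand apart at 100 nM. In 22Rv1 it ranged from 1.08 to 1.36, from 2.18 to 2.65 and from 2.16 to 2.28, and in LNCaP95 from 0.936 to 1.04, from 1.24 to 1.45 and from 1.25 to 1.5, in the same dose order. The log2 ratio was higher at 500 nM by 0.55 in LNCaP, 0.90 in 22Rv1 and 0.49 in LNCaP95, with a mean of 0.65 (exact permutation p = 0.00025, two-sided, the smallest possible).

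**Figure D3:**
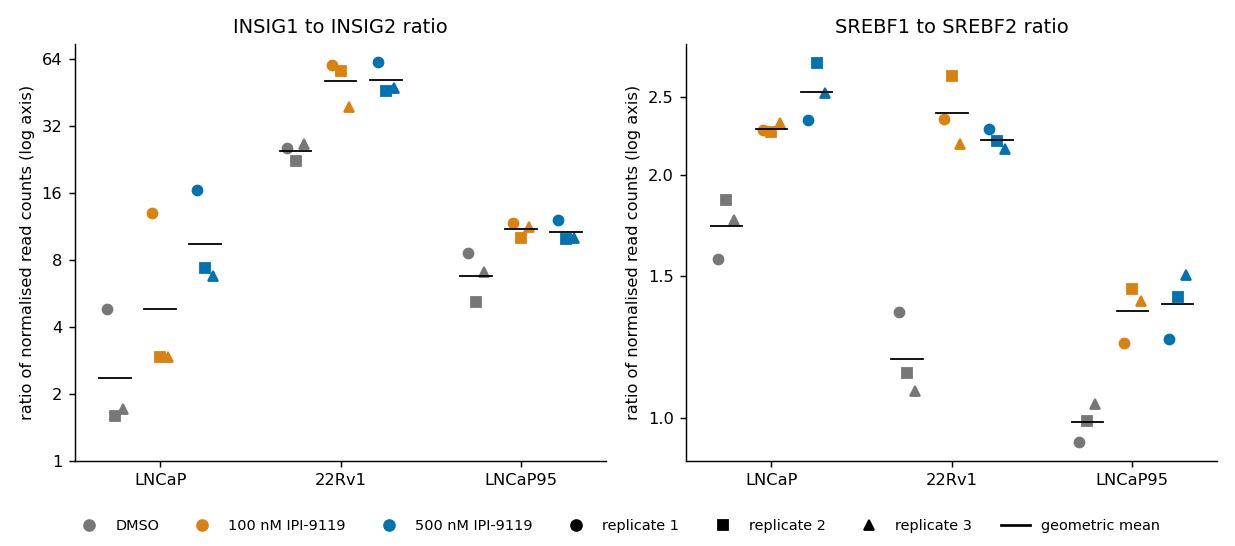
Ratio of normalised read counts (log axis) of INSIG1 to INSIG2 and of SREBF1 to SREBF2 in each library, by line and by DMSO, 100 nM and 500 nM from left to right; symbols mark the replicate number and bars the geometric mean. INSIG1 to INSIG2 is 22.3 or more in every 22Rv1 library, against 1.59 to 16.5 in LNCaP, and both ratios are higher at 500 nM than in DMSO in every line.

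Without drug, INSIG1 and STARD4 were lowest in LNCaP, INSIG2 was lowest in 22Rv1, and SREBF1 was lowest in LNCaP95. Between 22Rv1 and LNCaP in DMSO, 6 of the 8 genes differed, where 74.8% of all genes did. INSIG1 averaged 3418 ± 257 normalised reads in 22Rv1 and 728 ± 363 in LNCaP, a log2 difference of 2.34 ± 0.40 (limma adjusted p = 1.28e-05), and STARD4 averaged 384 ± 20 and 77.0 ± 42.3 (SD, n = 3 each), a difference of 2.43 ± 0.32 (limma adjusted p = 2.39e-07). SREBF2 was higher in 22Rv1 by 1.01 ± 0.17 (limma adjusted p = 8.07e-06) and SREBF1 by 0.47 ± 0.16 (adjusted p = 0.00959), while INSIG2 was lower by 1.05 (log2 difference -1.05 ± 0.14, adjusted p = 3.04e-07) and MBTPS2 lower as well (-0.44 ± 0.15, adjusted p = 0.00919). The SREBF1 call was lost without LNCaP DMSO replicate 3 or 22Rv1 DMSO replicate 1 (adjusted p = 0.0517 and 0.0593), and that of MBTPS2 without replicate 1 of either line (adjusted p = 0.0898 for LNCaP and 0.0970 for 22Rv1). Between LNCaP95 and LNCaP, 6 of the 8 differed, where 66.5% of all genes did. INSIG1 was higher in LNCaP95 by 1.95 ± 0.40 (limma adjusted p = 1.54e-04), MBTPS2 by 0.89 ± 0.15 (adjusted p = 8.47e-06), STARD4 by 0.85 ± 0.32 (adjusted p = 0.0215, with libraries that overlap) and INSIG2 by 0.43 ± 0.14 (adjusted p = 0.00979). SREBF1 was lower in LNCaP95 than in its parent line (-0.62 ± 0.16, limma adjusted p = 0.00133), as was SCAP (-0.55 ± 0.12, adjusted p = 3.51e-04). INSIG2 lost its call without LNCaP DMSO replicate 1 or LNCaP95 DMSO replicate 2 (adjusted p = 0.0799 and 0.0598), and STARD4 without LNCaP DMSO replicate 2 or 3 or LNCaP95 DMSO replicate 1 or 2 (adjusted p from 0.0546 to 0.117). Between LNCaP95 and 22Rv1, 6 of the 8 differed, where 76.1% of all genes did: INSIG2 (1.48 ± 0.14) and MBTPS2 (1.33 ± 0.15) were higher in LNCaP95, and SREBF1 (-1.08 ± 0.16), SREBF2 (-0.82 ± 0.17), SCAP (-0.52 ± 0.12) and STARD4 (-1.58 ± 0.32) were lower (limma adjusted p at most 5.19e-04). At equal totals the median of all genes shifted by 0.21 for LNCaP95 against LNCaP and by 0.14 for LNCaP95 against 22Rv1, and rises were 63.2% of calls (51.1% as deposited) for LNCaP95 against LNCaP. That scaling turned the MBTPS1 difference of -0.04 between LNCaP95 and LNCaP, not called as deposited, to 0.16 (limma adjusted p = 0.0181), and called SREBF2 higher in LNCaP95 (0.40, adjusted p = 0.0270). Each line was its own set of libraries, so line and any batch of its libraries cannot be told apart.

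Set against length, SREBF1 ranked first of the 8 genes in every group, while INSIG1 stood at place 5 in LNCaP in DMSO and at place 2 in LNCaP at 500 nM and in LNCaP95 at both doses. Per kilobase of merged exons, SREBF1 led, with 4809 ± 233 normalised reads in LNCaP, 7450 ± 131 in 22Rv1 and 3309 ± 106 in LNCaP95 at 500 nM, against 2110 ± 277, 2917 ± 371 and 1370 ± 30.0 in DMSO (SD, n = 3). INSIG1 at 500 nM reached 1709 ± 780 per kilobase in LNCaP, within its spread of SREBF2 at 1591 ± 162, whereas in DMSO it stood at 236 ± 118 against 1031 ± 220 for SREBF2. In LNCaP95 INSIG1 stood at 2465 ± 155 and SREBF2 at 2007 ± 225 per kilobase at 500 nM. SCAP came next in the DMSO groups of LNCaP at 887 ± 53.0, and MBTPS1 followed at 567 ± 20.3. The lowest places were held by INSIG2, MBTPS2 and STARD4: in DMSO STARD4 was last in LNCaP at 13.9 ± 7.63 per kilobase and in LNCaP95 at 23.7 ± 6.53, and INSIG2 was last in 22Rv1 at 53.0 ± 1.52. In 22Rv1 MBTPS2 at 69.8 ± 13.3 and STARD4 at 69.3 ± 3.63 per kilobase did not differ beyond their spread in DMSO. Lengths came from GENCODE 29, another annotation than the one counted.

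Across the 27 libraries, with each line centred on its own mean, SREBF1, SREBF2, INSIG1 and STARD4 were the most alike of the 8 genes. Pearson's r of log2 values was 0.95 between INSIG1 and STARD4, 0.91 between SREBF2 and INSIG1, 0.89 between SREBF1 and SREBF2 and 0.86 between SREBF1 and INSIG1. INSIG2 had r of 0.63 to 0.71 with those 4 genes, MBTPS1 had 0.57 with SREBF1 and 0.64 with SREBF2, and MBTPS2 had 0.59 with STARD4. SCAP had r of at most 0.33 with any other of the 8, and MBTPS2 had r of -0.08 with MBTPS1. Libraries share dose groups and depth, so these are descriptions over points that are not independent. Among 10150 genes compared, those most like INSIG1 included LSS (r = 0.98), FDFT1 and HMGCS1 (0.97 each) and DHCR7 (0.97), all enzymes of cholesterol synthesis. Those most like STARD4 included LPIN1, a phosphatidate phosphatase (0.94), FADS2, a fatty acid desaturase (0.94), and TXNRD1, a thioredoxin reductase (0.94). For SREBF2 the list held ACSL1, which activates long-chain fatty acids (0.97), DHCR7 (0.93), ME1, the cytosolic malic enzyme (0.92), and FAM102A (0.91). SREBF1 differed from these, being most like ABCG1, a sterol exporter induced by liver X receptors (0.96), ABHD4 (0.96), the cell cycle inhibitor CDKN1A (0.95), the autophagy receptor SQSTM1 (0.95) and the lysosomal sialidase NEU1 (0.95).

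Genes on either side of SREBP processing were counted at 500 nM against DMSO, from lists written from textbook knowledge. The lists were chosen with earlier results of these data known, so their counts are no independent check. Of all genes, 11.0% rose in LNCaP, 3.47% in 22Rv1 and 28.2% in LNCaP95, and the median of all genes was -0.01, -0.00 and 0.03. Rises were 52.8%, 49.8% and 54.0% of all calls in the same order of lines, and the other calls were falls. Cholesterol synthesis genes rose in number in every line: 17 of 22 rose and 0 fell in LNCaP (median log2 difference 1.12), 13 of 22 rose and 0 fell in 22Rv1 (0.64), and 18 rose and 3 fell in LNCaP95 (0.65). HMGCS1, which makes the precursor of mevalonate, rose by 2.17 ± 0.40 in LNCaP and by 1.06 ± 0.11 in 22Rv1, FDFT1, the squalene synthase, by 2.06 ± 0.35 in LNCaP and MVD, a mevalonate pathway decarboxylase, by 1.04 ± 0.17 in 22Rv1. MSMO1 (1.32 ± 0.09) and SC5D (1.23 ± 0.11), which act late in the pathway, led in LNCaP95. Of fatty acid synthesis genes 9 of 20 rose and 1 fell in LNCaP (median 0.59), 11 of 19 rose and 0 fell in 22Rv1 (0.65), and 10 of 19 rose and 5 fell in LNCaP95 (0.40). SCD, the stearoyl-CoA desaturase, was the largest of these in all 3 lines, at 2.85 ± 0.50 in LNCaP, 2.33 ± 0.16 in 22Rv1 and 1.86 ± 0.17 in LNCaP95, beside LPIN1 in LNCaP (2.58 ± 0.39), FASN itself, the target of the drug, in 22Rv1 (1.68 ± 0.14), and MID1IP1, an activator of acetyl-CoA carboxylase, in LNCaP95 (1.32 ± 0.07).

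Counts for genes of sterol uptake and movement varied by line, a difference that was not tested: 6 of 16 rose and 1 fell in LNCaP (median 0.46), 1 of 16 rose and 1 fell in 22Rv1 (0.13), and 12 of 17 rose and 2 fell in LNCaP95 (0.40). NPC1, which exports cholesterol from lysosomes, averaged 6718 normalised reads at 500 nM and 1516 in DMSO in LNCaP, a rise of 2.16 ± 0.18. NPC1L1, a sterol importer best known in the gut, rose by 2.95 ± 0.38 in LNCaP at low levels, 42.3 at 500 nM and 5.0 in DMSO. The sterol transfer protein gene GRAMD1A fell in 22Rv1 (-0.65 ± 0.13). Its relative GRAMD1B rose in LNCaP95 by 1.59 ± 0.39 at a low level, 23.5 at 500 nM and 6.70 in DMSO. STARD6, a relative of STARD4, rose there by 1.63 ± 0.44 with 8.92 at 500 nM and 2.35 in DMSO. NPC1L1, GRAMD1B and STARD6 had DMSO means under 10, the filter value. DMSO libraries alone could not pass them, so they entered the test through drug libraries and a rise was favoured in advance. The counts of 6 of 16 and 12 of 17 include them.

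Of 12 COPII genes, whose coats carry SCAP to the Golgi, 2 rose in LNCaP (median 0.10), 2 in 22Rv1 (0.21) and 8 in LNCaP95 (0.30), and 0 fell. SEC24D, a cargo adaptor of that coat, led in each line, with rises of 0.69 ± 0.13 in LNCaP, 0.64 ± 0.11 in 22Rv1 and 0.92 ± 0.08 in LNCaP95. The small GTPase gene SAR1B (0.39 ± 0.10) in LNCaP, SEC24C (0.32 ± 0.08) in 22Rv1 and SEC31A (0.64 ± 0.08) in LNCaP95 stood second. Among 14 genes that retain sterol-regulated proteins in the endoplasmic reticulum or degrade them, 3 rose in LNCaP (median 0.01) and 1 in 22Rv1 (0.08). In LNCaP95 4 of the 14 rose and 2 fell (0.01), where 28.2% of all genes rose. The genes that rose included UFD1L (0.34 ± 0.10) and NPLOC4 (0.32 ± 0.08), partners of the unfoldase VCP, in LNCaP, and VCP itself in 22Rv1 (0.45 ± 0.10). In LNCaP95 they included the ubiquitin ligase SYVN1 (1.0 ± 0.11) and ERLIN2 (0.56 ± 0.10).

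Among other substrates of the 2 proteases, ATF6 was called in opposite directions in LNCaP95 and LNCaP, its effect differing by 1.3 ± 0.15 for LNCaP95 minus LNCaP (limma adjusted p = 3.43e-07). GNPTAB, cut by the site-1 protease, rose by 1.35 ± 0.15 in LNCaP and ATF6, a stress sensor cut by both, fell there (-0.32 ± 0.09), with 1 of 6 up and 1 down. In LNCaP95, where 3 of 6 rose and 0 fell, ATF6 rose by 0.99 ± 0.08 and CREB3 by 0.84 ± 0.09, and in 22Rv1 CREB3L1, a transcription factor freed by the same cuts, was the only one of 7 to rise, by 1.08 ± 0.15. Of 16 nuclear partners and turnover genes of SREBPs, 0 rose and 1 fell in LNCaP (NFYC, -0.28 ± 0.08; list median -0.13) and 0 rose and 1 fell in 22Rv1 (NFYB, -0.37 ± 0.10; 0.03). NFYB and NFYC encode subunits of NF-Y. In LNCaP95 4 of the 16 rose and 3 fell (median 0.08), where 28.2% of all genes rose. The called genes included NR1H2, a liver X receptor (0.69 ± 0.08), and KPNB1, the importin that carries nuclear SREBP-2 (-0.52 ± 0.07).

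**Figure D4:**
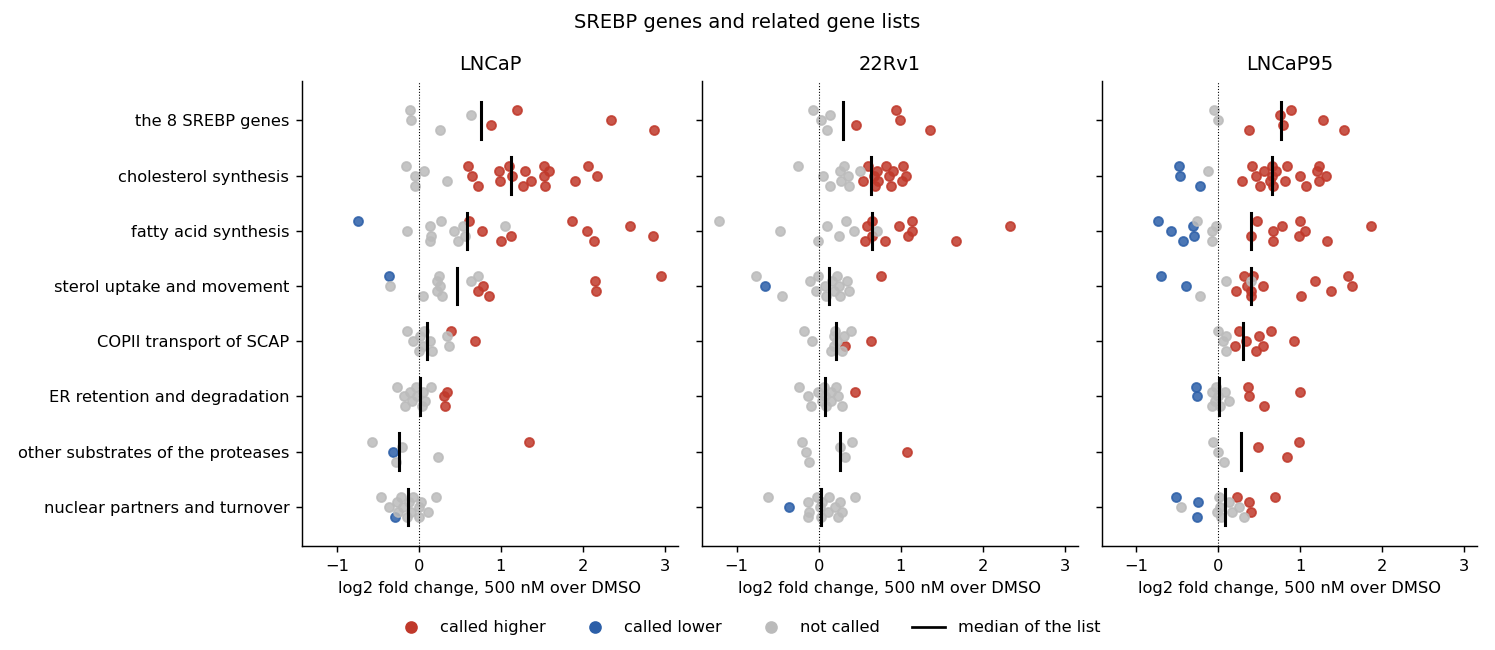
Log2 fold change at 500 nM over DMSO of the 8 SREBP genes and of 7 related lists in each line, 1 point a gene; red and blue points passed the test as higher and lower, grey points did not, and black bars are list medians. Medians of cholesterol synthesis lie at 1.12 in LNCaP, 0.64 in 22Rv1 and 0.65 in LNCaP95, while those of nuclear partners lie between -0.13 and 0.08.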

How the data were processed

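Libraries were directional, from poly(A) RNA, and read from both ends, per the labels' protocols; cells and their medium were collected and pelleted together. Per the submitters' processing notes, STAR 2.3.1z4, featureCounts and DESeq were used with build hg19; the strand setting and annotation are not given in the sources used here. The deposited table holds a normalised signal, read counts scaled by the size factor of each library. All values were whole multiples of the worth of 1 read (0.757 to 1.39 units; tolerance 1e-06) in 27 of 27 libraries, 100% of values, so reads could be recovered.

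Values were tested as log2(value + 1), which understates changes of low genes, with limma 3.58.1 in R 4.3.3, two-sided, with an intensity trend and Benjamini-Hochberg adjustment over all genes with a value of 10 or more in at least 3 fitted libraries; genes with an adjusted p under 0.05 were called. This log-scale test had been chosen for normalised values and was kept after reads were recovered; edgeR 4.0.16 and DESeq2 1.42.0 ran on the recovered reads as alternatives. Each line was fitted on its 9 libraries; differences of the effect and DMSO levels between lines used all 27, the differences over genes passing the filter in each line. Log2 ratios were tested by exact permutation within lines. The fit was run on simulated LNCaP-like libraries that had no replicate effect. Since LNCaP replicate 1 stood apart in the data, that run does not show how the fit behaves on them. No pair of libraries agreed within sampling noise (chi-square per degree of freedom 4.97 or more).

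The members and gene lists were chosen with earlier results of these data known. Beside the 8 genes, those named are up to 2 called genes of each list and line with the largest log2 change at 500 nM, and the 5 genes most like INSIG1, SREBF1, SREBF2 and STARD4 (Pearson's r, mean of 50 or more in each line); some genes these rules pick are not reported here.

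Groups share replicate numbers. Same-numbered libraries deviated together (every correlation over 0.1) for 500 nM with DMSO (0.13 to 0.32) and with 100 nM (0.26 to 0.39) in LNCaP and for all pairs of groups in LNCaP95 (0.13 to 0.47), but not for 100 nM with DMSO in LNCaP or for any pair in 22Rv1. In LNCaP, 500 nM replicate 2 with DMSO replicate 3 reached 0.1314, beside 0.1306 for 500 nM replicate 3 with DMSO replicate 3. Number 3 thus did not pair those groups more closely than a mismatch. Intervals are 95% confidence intervals of the limma fit.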

Additional observations from a re-analysis of the deposited data

Results flagged for a closer look

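In 7 cases the 500 nM effect on 1 of the 8 genes differed between lines by a test of the difference itself. The same tests called 38.9% of all genes for LNCaP95 minus LNCaP, 14.3% for 22Rv1 minus LNCaP and 25.4% for LNCaP95 minus 22Rv1. MBTPS1 differed by 0.48 on the log2 scale for LNCaP95 minus LNCaP and by 0.28 for LNCaP95 minus 22Rv1. STARD4 differed by -1.60 for LNCaP95 minus LNCaP and by -1.40 for 22Rv1 minus LNCaP. INSIG2 differed by -0.94 for 22Rv1 minus LNCaP and by 0.95 for LNCaP95 minus 22Rv1, the only gene of the 8 whose effect at 500 nM in 22Rv1 differed from both other lines. INSIG1 differed by -1.88 for 22Rv1 minus LNCaP.

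LNCaP replicate 1 enters the INSIG1 and STARD4 differences that involve LNCaP. Without LNCaP DMSO replicate 1 they were -2.26 for INSIG1 and -1.81 for STARD4 in 22Rv1 minus LNCaP (limma adjusted p = 0.00545 and 0.00239), and without LNCaP 500 nM replicate 1 they were -1.53 and -1.21 (adjusted p = 0.0829 and 0.0949). The part of that replicate in the differences was not tested further.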

How the results depend on the processing

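Of 1608 repeats of a single gene's log2 difference under another setting or without 1 library, 46 lost a call, 31 gained 1 and 1 both gained a call and turned: MBTPS1 in DMSO, LNCaP95 against LNCaP, was -0.04 as reported and 0.16 at equal totals. In 100 more, both values were uncalled and had opposite signs. No call against DMSO in LNCaP95 changed under any alternative. In LNCaP at 100 nM against DMSO, 2 of the 8 genes were called, against 4 by DESeq2, 4 with the replicate number as a block and 4 from replicates 2 and 3 alone; that block did not follow from a pairing of those libraries. For 500 nM against 100 nM in LNCaP, 0 were called, against 5 from replicates 2 and 3 alone, and over all genes 1 was called, against 87 by DESeq2 and 755 from replicates 2 and 3.

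Without 1 library at a time, the number of the 8 genes called ran from 4 to 6 in LNCaP at 500 nM, from 1 to 4 at 100 nM and from 0 to 3 between its doses. It ran from 3 to 4 in 22Rv1 at 500 nM, from 2 to 4 at 100 nM, and stayed at 6 for both doses in LNCaP95. For the effect differences it ran from 2 to 3 for LNCaP95 minus LNCaP, 1 to 3 for 22Rv1 minus LNCaP and 1 to 2 for LNCaP95 minus 22Rv1, and in DMSO from 4 to 6, 4 to 6 and 6 to 6. Over all genes, calls without 1 library ran from 1475 to 3891 in LNCaP at 500 nM (2671 as reported), 1736 to 4617 at 100 nM (3250), 0 to 67 between its doses (1), 384 to 697 in 22Rv1 at 500 nM (946) and 261 to 1184 at 100 nM (889). The INSIG1 to INSIG2 and SREBF1 to SREBF2 log2 ratio differences ran from 1.10 to 1.40 and from 0.62 to 0.68 without 1 library; with the replicate number as a block their exact sign-flip p was 0.00391. Against DMSO the block also ended the call of SREBF2 in 22Rv1 at 100 nM (limma adjusted p = 0.0511), where numbers did not pair the libraries, and it changed no other call beyond those named here and in the results. With 3 libraries a group, differences smaller than the intervals given could not be resolved.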
